A study of Mus musculus with 12 samples.

Results

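The chemokine genes of CD8 T cells described here are Ccl1, Ccl3, Ccl4, Ccl5, Ccl9, Ccl17, Ccl22, Xcl1 and Cxcl10. They were taken by gene symbol, as every probe set that the deposited array annotation files under one of these names. That gave 10 probe sets for 9 genes, of 45037 probe sets and 20962 genes on the array, with Ccl9 measured by a pair of probe sets. RNA was hybridized to 12 Affymetrix HT mouse arrays with perfect-match probes, made from CD8 T cells of 6 mice, which were males of 4 weeks on the C57BL/6 background. Mice 4, 5 and 6 were conditional knockouts, in which the CD4 promoter drives Cre recombinase and both Ezh2 alleles are floxed, so that deletion is aimed at T cells, and mice 1, 2 and 3 were wild type at Ezh2. The study asked how the transcripts of CD8 T cells, at rest and after stimulation, depend on Ezh2, the methyltransferase of Polycomb repressive complex 2 that modifies histone H3 on lysine 27. Each mouse gave 1 activated and 1 naive sample, so the groups were activated knockout, activated wild-type, naive knockout and naive wild-type cells, with 3 arrays each. Cells were purified from spleen and lymph nodes with magnetic beads carrying a CD8 antibody, to a stated purity above 93%, and were called naive when freshly isolated, with no sort on naive markers described. Activated cells had spent 3 days in culture with plate-bound anti-CD3 and a second antibody, which the series description names as anti-CD28 and the sample characteristics as anti-CD38. No array of cells cultured without stimulation was analysed here, so stimulation, culture and handling cannot be told apart.

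Chemokines are small secreted proteins that bind G-protein-coupled receptors on leukocytes and guide them along gradients. Activated CD8 T cells are a known source of Ccl3, Ccl4, Ccl5 and Xcl1, which draw phagocytes, other T cells and cross-presenting dendritic cells. Ccl5 differs from the others in that effector and memory CD8 T cells keep its transcript and protein at hand, whereas naive T cells make little. Transcription of many chemokine genes after T-cell receptor signalling is driven by NFAT, AP-1 and NF-kappaB factors, and that of Cxcl10 by interferon-activated factors.

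The promoter windows of Ccl1, Ccl3, Ccl9 and Xcl1, which are 4 of the 5 genes with a large rise upon activation, are shown for the letters near their start sites. The other is Ccl4. Each window runs from 250 bases before to 50 bases after the gene's start in RefSeq (assembly GRCm38.p6), read 5′ to 3′ on the gene's strand. Capitals mark matches to the NFAT core GGAAAA, which reads TTTTCC on the other strand, and to the AP-1 site TGANTCA, with both strands searched. The Ccl1 window lies at chr11:82179763-82180062, the Ccl3 window at chr11:83649329-83649628, the Ccl9 window at chr11:83578587-83578886 and the Xcl1 window at chr1:164935473-164935772, each on the minus strand.
Ccl1: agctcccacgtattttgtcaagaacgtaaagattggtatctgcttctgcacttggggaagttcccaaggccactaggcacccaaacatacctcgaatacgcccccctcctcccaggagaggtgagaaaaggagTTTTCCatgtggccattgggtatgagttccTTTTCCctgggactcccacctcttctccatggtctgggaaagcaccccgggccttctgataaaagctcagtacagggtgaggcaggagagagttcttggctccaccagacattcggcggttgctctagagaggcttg
Ccl3: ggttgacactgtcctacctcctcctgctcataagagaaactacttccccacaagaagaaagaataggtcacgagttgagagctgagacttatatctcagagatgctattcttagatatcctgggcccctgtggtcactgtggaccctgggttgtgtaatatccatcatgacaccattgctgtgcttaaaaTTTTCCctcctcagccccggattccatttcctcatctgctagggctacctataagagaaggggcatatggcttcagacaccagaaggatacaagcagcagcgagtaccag
Ccl9: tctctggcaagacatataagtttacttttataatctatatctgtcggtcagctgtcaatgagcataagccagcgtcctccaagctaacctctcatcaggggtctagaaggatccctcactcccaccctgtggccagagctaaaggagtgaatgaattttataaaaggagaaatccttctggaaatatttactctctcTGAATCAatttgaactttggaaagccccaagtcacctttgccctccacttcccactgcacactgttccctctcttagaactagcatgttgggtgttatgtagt
Xcl1: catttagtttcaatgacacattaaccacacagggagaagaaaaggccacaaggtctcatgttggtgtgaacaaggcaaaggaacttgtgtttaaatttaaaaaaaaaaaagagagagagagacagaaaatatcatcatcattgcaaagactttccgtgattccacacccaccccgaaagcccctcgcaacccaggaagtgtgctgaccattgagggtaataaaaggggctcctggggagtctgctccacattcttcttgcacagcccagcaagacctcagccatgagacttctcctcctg
The Ccl1 window held 2 NFAT cores, starting 117 and 87 bases before the gene's start, and the Ccl3 window held 1, starting 60 bases before it. The Ccl9 window held 1 AP-1 site, starting 53 bases before the start. An NFAT core was found in 23.6% of the 27025 promoter windows in the RefSeq table and an AP-1 site in 7.93%. Neither motif was found in the Xcl1 window, nor were the NF-kappaB site (GGGA, any base, TTTCC; 0.385% of windows), the interferon-stimulated response element (GAAA, any pair of bases, GAAA; 3.49%) or the TATA box TATAAA (14.2%). The TATA box letters occurred 3 times in the Ccl9 window, and a pair of these matches overlap. The NFAT core can lie within an NF-kappaB site. The Cxcl10 window held 1 AP-1 site and 1 interferon-stimulated response element, starting 74 and 213 bases before its start. None of the 5 motifs was found in the windows of Ccl17 and Ccl22. A match describes letters in this window only.

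The values are log2 expression estimates made by the authors, with array medians between 0.905 and 0.976 and a maximum of 10.595 over all 12 arrays. Changes are log2 differences ± SE from a fit across all genes, with p-values adjusted over 20962 genes, and a gene passes at an adjusted p under 0.05. The spread behind every p-value is that between the 3 mice within a group, pooled over the 4 groups and moderated with that of all genes. Levels of different genes are not ranked against each other, since probe sets differ in how strongly they bind. The deposited annotation notes possible cross-hybridization for 8 of the 10 chemokine probe sets, all but those of Xcl1 and Cxcl10, and marks none as antisense. Ezh2 itself was lower by 2.02 ± 0.20 in activated knockout cells than in activated wild-type cells, and in naive cells it differed by -0.20 ± 0.20 (adjusted p = 0.845). Where its probe set lies relative to the deleted part of Ezh2 was not known here. The mean over 12 T-cell and CD8 markers lay between 5.22 and 6.33 log2 units on every array.

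Activation was accompanied by a large rise in 5 of the 9 chemokine genes in both genotypes: Ccl3, Xcl1, Ccl4, Ccl9 and Ccl1. In knockout cells 7 of the 9 genes rose, 1 fell and 1 did not pass, against a background of 26.7% of all genes called (15.8% higher, 10.9% lower). In wild-type cells 6 rose, 1 fell and 2 did not pass, against 26.8% called (14.8% higher, 11.9% lower). The median change over the 9 genes was 4.12 in knockout cells and 3.19 in wild-type cells, where the medians over all genes were -0.02 and -0.03. Arrays of activated and naive cells did not overlap for 7 genes that were higher and 1 that was lower, in each genotype. Such a separation was seen upward in 18.7% of all genes and downward in 17.3% in knockout cells, and in 19.7% and 22.7% in wild-type cells. Since these are bulk samples, more cells of a type and more RNA per cell cannot be told apart.

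Ccl3 (gene ID 20302, probe set 1419561) encodes a ligand of Ccr1 that attracts macrophages and activated T cells. It read 9.51, 9.45 and 9.49 in activated knockout cells, 9.15, 9.20 and 9.19 in activated wild-type cells, 1.84, 2.12 and 2.54 in naive knockout cells and 1.84, 1.98 and 2.10 in naive wild-type cells. All 6 activated arrays were far above all 6 naive ones, and the naive genotypes overlapped. Ccl3 rose 159-fold in knockout cells (7.31 ± 0.13, adjusted p = 1.49e-14) and 148-fold in wild-type cells (7.21 ± 0.13, adjusted p = 3.69e-14). Its activated readings lay within 2 log2 units of the highest value over all arrays.

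Xcl1 (gene ID 16963, probe set 1419412) encodes the ligand of Xcr1, the receptor by which cross-presenting dendritic cells find activated CD8 T cells. It read 8.95, 8.91 and 8.92 in activated knockout cells, 8.49, 8.55 and 8.51 in activated wild-type cells, 4.40, 4.98 and 5.06 in naive knockout cells and 3.50, 3.86 and 3.44 in naive wild-type cells. The 4 groups did not overlap with each other, and the 4 means ran from activated knockout down to naive wild type in that order. Xcl1 rose 17.3-fold in knockout cells (4.12 ± 0.15, adjusted p = 1.76e-11) and 30.2-fold in wild-type cells (4.92 ± 0.15, adjusted p = 2.97e-12).

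Ccl4 (gene ID 20303, probe set 1421578) encodes a chemokine closely related to Ccl3 that also attracts macrophages. It read 8.35, 8.17 and 7.79 in activated knockout cells, 7.84, 7.77 and 7.87 in activated wild-type cells, 3.06, 4.02 and 3.96 in naive knockout cells and 2.61, 3.03 and 2.79 in naive wild-type cells. The activated genotypes overlapped, and of the naive knockout arrays that of mouse 4 lay just above the highest wild-type one. Ccl4 rose 21.5-fold in knockout cells (4.42 ± 0.21, adjusted p = 3.88e-10) and 32.4-fold in wild-type cells (5.02 ± 0.21, adjusted p = 1.12e-10).

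Ccl9 (gene ID 20308) encodes a mouse ligand of Ccr1 for which humans have no direct counterpart. Its probe set with the higher mean, 1417936, read 6.998, 6.77 and 6.68 in activated knockout cells, 5.80, 5.82 and 5.90 in activated wild-type cells, 0.95, 1.22 and 0.84 in naive knockout cells and 1.13, 1.43 and 1.28 in naive wild-type cells. Both activated groups were far above the naive ones, and the activated genotypes stood apart from each other. Ccl9 rose 56.1-fold in knockout cells (5.81 ± 0.11, adjusted p = 3.47e-14) and 23.5-fold in wild-type cells (4.56 ± 0.11, adjusted p = 4.3e-13).
The second probe set, 1448898, read 5.40, 4.27 and 4.60 in activated knockout cells, 3.67, 3.53 and 3.82 in activated wild-type cells, 1.24, 1.42 and 1.40 in naive knockout cells and 1.29, 0.86 and 1.36 in naive wild-type cells. Its order of groups above the naive level was the same, with a wider spread among activated knockout arrays. By this probe set the rise was 3.40 ± 0.21 in knockout cells and 2.51 ± 0.21 in wild-type cells, smaller than by the first.

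Ccl1 (gene ID 20290, probe set 1421688) encodes the ligand of Ccr8, a receptor found on type 2 helper and regulatory T cells. It read 5.99, 5.96 and 6.16 in activated knockout cells, 4.36, 4.46 and 4.57 in activated wild-type cells, 1.48, 1.29 and 1.37 in naive knockout cells and 0.95, 1.42 and 1.45 in naive wild-type cells. Every activated knockout array exceeded every activated wild-type array by more than 1 log2 unit, whereas the naive genotypes overlapped. Ccl1 rose 25.2-fold in knockout cells (4.66 ± 0.12, adjusted p = 5.37e-13) and 9.10-fold in wild-type cells (3.19 ± 0.12, adjusted p = 4.96e-11).

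**Figure D1:**
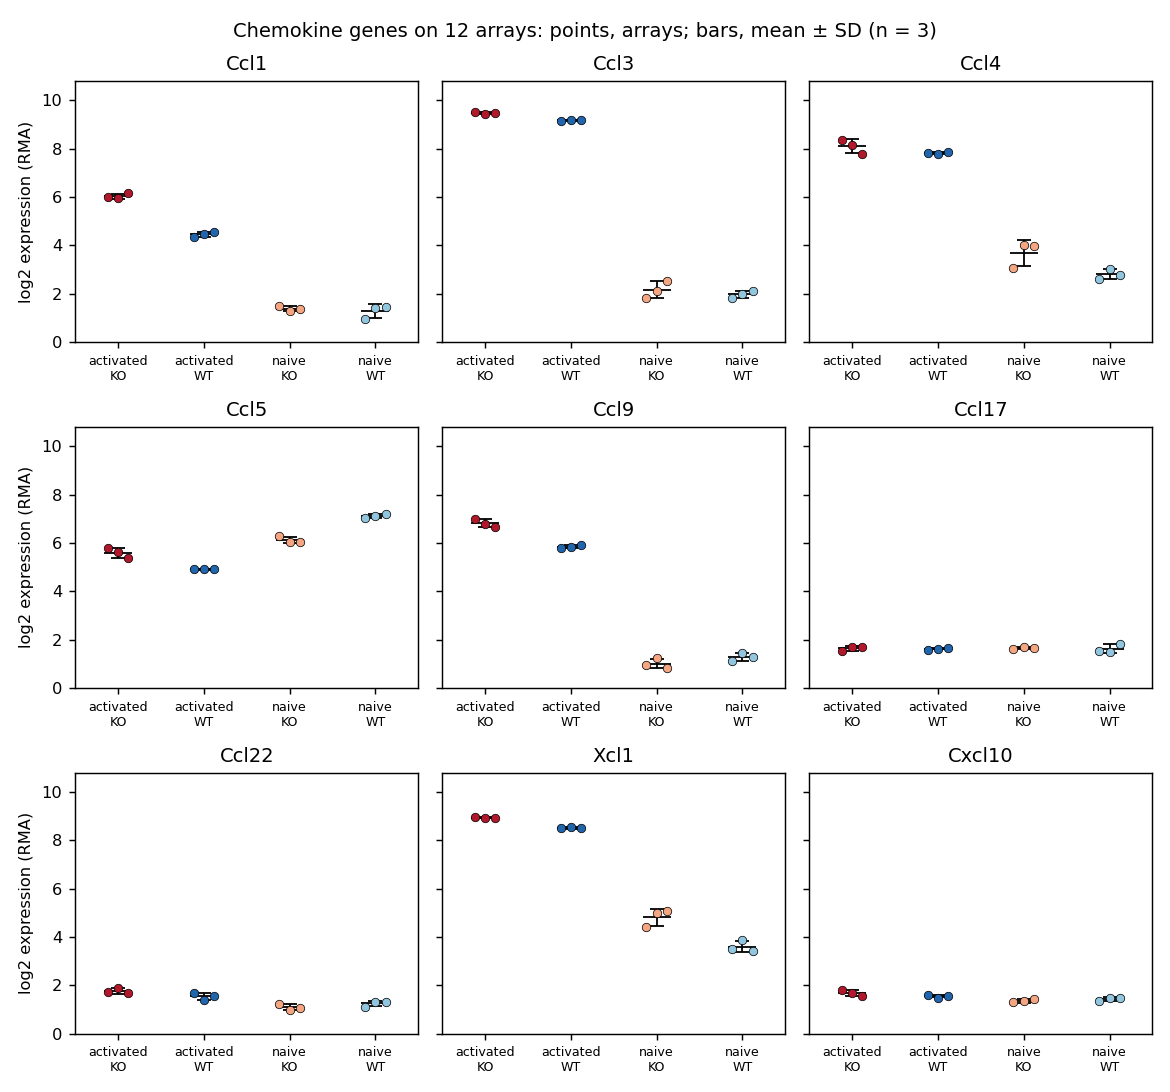
Log2 expression of the 9 chemokine genes on 12 arrays (points), with the mean and SD of each group of 3 (bars), each gene by its brightest probe set. Ccl1, Ccl3, Ccl4, Ccl9 and Xcl1 are high in activated cells of both genotypes, Ccl5 is highest in naive wild-type cells (mean 7.11), and Ccl17, Ccl22 and Cxcl10 stay between 1.00 and 1.91 on every array.

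Ccl5 moved in the opposite direction. It encodes a ligand of Ccr1 and Ccr3 (gene ID 20304, probe set 1418126). It read 5.78, 5.60 and 5.37 in activated knockout cells, 4.90, 4.92 and 4.90 in activated wild-type cells, 6.27, 6.04 and 6.05 in naive knockout cells and 7.03, 7.11 and 7.20 in naive wild-type cells. The 4 groups did not overlap, and the naive wild-type arrays were the highest and the activated wild-type arrays the lowest. Ccl5 fell by 0.54 ± 0.10 in knockout cells, a 1.45-fold decrease (adjusted p = 0.000889), and by 2.21 ± 0.10 in wild-type cells, a 4.62-fold decrease (adjusted p = 4.61e-10).

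Some marker lists of other cells fell upon activation, as Ccl5 did, and others were mixed. Of 13 B-cell markers, 9 fell upon activation in knockout cells and 13 in wild-type cells, and of 13 macrophage and neutrophil markers 3 and 6 fell. The mean of the B-cell list ranged over 1.16 to 1.25 in activated knockout, 1.21 to 1.25 in activated wild-type, 2.07 to 2.33 in naive knockout and 2.83 to 2.87 in naive wild-type cells. The mean of the macrophage and neutrophil list ranged over 0.79 to 0.95, 0.88 to 0.91, 1.10 to 1.16 and 1.50 to 1.64 in the same groups. Among 11 markers of natural killer (NK) cells, which also make Ccl5, 2 rose and 2 fell in knockout cells, and 1 rose and 3 fell in wild-type cells. Their mean ranged over 1.27 to 1.35, 1.15 to 1.24, 1.43 to 1.66 and 1.54 to 1.59. Of 11 dendritic-cell markers, 3 rose and 2 fell in knockout cells, and 2 rose and 2 fell in wild-type cells. Of 7 CD4 and regulatory T-cell markers, 1 rose and 1 fell in each genotype. Of 7 basophil and mast-cell markers, 0 rose and 1 fell in knockout cells, and 1 rose and 2 fell in wild-type cells. The part of these cells in the Ccl5 result was not tested, and no detection calls were used that would show which markers were absent. The T-cell and CD8 list fell in 11 and rose in 1 of 12 genes in knockout cells, and fell in 8 and rose in 1 in wild-type cells. For all these lists the shares of all genes were 15.8% higher and 10.9% lower in knockout cells, and 14.8% and 11.9% in wild-type cells.

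The other 3 genes read below 2 log2 units on every array and changed little. Ccl22 (gene ID 20299, probe set 1417925), a ligand of Ccr4, read 1.72, 1.91 and 1.68 in activated knockout cells, 1.69, 1.39 and 1.55 in activated wild-type cells, 1.23, 1.00 and 1.06 in naive knockout cells and 1.12, 1.32 and 1.32 in naive wild-type cells. Activated arrays lay above the naive ones of the same genotype, and the genotypes overlapped within each state. Its rise was 0.67 ± 0.10 in knockout cells (adjusted p = 0.000108) and 0.29 ± 0.10 in wild-type cells (adjusted p = 0.0495). The wild-type call was lost with the mouse as a block (adjusted p = 0.0936) and without wild-type naive array 1 (0.189) or activated array 1 (0.212), among others. Cxcl10 (gene ID 15945, probe set 1418930), an interferon-induced ligand of Cxcr3, read 1.82, 1.68 and 1.58 in activated knockout cells, 1.59, 1.50 and 1.56 in activated wild-type cells, 1.297, 1.35 and 1.46 in naive knockout cells and 1.34, 1.48 and 1.49 in naive wild-type cells. Activated arrays lay above the naive ones of the same genotype by narrow margins, and the genotypes overlapped within each state. Cxcl10 rose by 0.33 ± 0.09 in knockout cells (adjusted p = 0.00996) and differed by 0.11 ± 0.09 in wild-type cells (adjusted p = 0.395). Ccl17 (gene ID 20295, probe set 1419413), the other ligand of Ccr4, lay between 1.49 and 1.83 on all 12 arrays, and its 4 groups overlapped. Its change upon activation was 0.00 ± 0.09 in knockout cells and -0.00 ± 0.09 in wild-type cells (adjusted p = 0.999 and 0.998), and its sign in wild-type cells turned under other scalings.

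**Figure D2:**
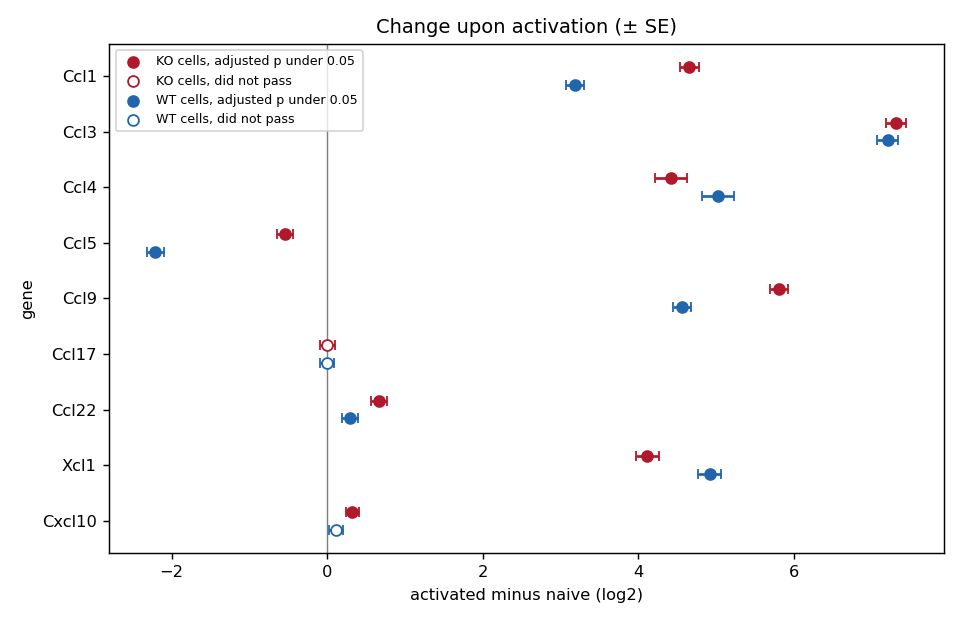
Change upon activation (activated minus naive, log2, with SE) of the 9 chemokine genes in knockout cells (red) and wild-type cells (blue), with filled points for an adjusted p under 0.05. Ccl1 and Ccl9 lie further right in knockout cells (4.66 and 5.81) than in wild-type cells (3.19 and 4.56), and Ccl5 is left of 0 in both.

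In naive cells the genotypes differed in 2 of the 9 chemokine genes: Xcl1 was higher and Ccl5 lower in cells labelled knockout, whose Ezh2 reading itself did not pass against wild type in this state. The background in this comparison was 1.09% of all genes called, 0.62% higher and 0.468% lower. Xcl1 averaged 4.81 ± 0.36 in naive knockout cells and 3.60 ± 0.23 in naive wild-type cells (SD, n = 3 each), a 2.32-fold difference (1.22 ± 0.15, adjusted p = 0.000415). Ccl5 averaged 6.12 ± 0.13 in naive knockout cells and 7.11 ± 0.08 in naive wild-type cells, which is 1.99-fold lower in the knockout (-0.99 ± 0.10, adjusted p = 9.68e-05). Ccl4 averaged 3.68 ± 0.54 in naive knockout cells and 2.81 ± 0.21 in naive wild-type cells, a difference of 0.87 ± 0.21 that did not pass (adjusted p = 0.0616). Arrays of the genotypes did not overlap for Xcl1 and Ccl4, which were higher, and for Ccl5, against 6.98% of all genes upward and 8.02% downward. For Ccl4 the call depended on the arrays and settings used. Without the naive array of knockout mouse 4, the lowest of its group, the difference was 1.18 (adjusted p = 0.000556). The difference also passed without the activated array of knockout mouse 6 (0.0395) and under 3 other settings. With 1 array left out it ranged over 0.71 to 1.18, with adjusted p up to 0.267.

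The other 6 genes did not pass in naive cells. Their differences were 0.20 ± 0.13 for Ccl3, 0.10 ± 0.12 for Ccl1, 0.03 ± 0.09 for Ccl17, -0.07 ± 0.09 for Cxcl10, -0.16 ± 0.10 for Ccl22 and -0.28 ± 0.11 for Ccl9. The Ccl9 difference was 0.19 ± 0.21 by the second probe set. The median over the 9 genes was 0.03, against -0.01 over all genes.

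Other markers also differed between naive genotypes. Of the B-cell list 5 of 13 were lower in the knockout, 4 of them genes of MHC class II antigen presentation (H2-Aa, H2-Ab1, H2-Eb1 and Cd74) and 1 the B-cell receptor component Cd79b. Of the macrophage and neutrophil list 5 of 13 were lower (Lyz1, Lyz2, Mpeg1, S100a8 and S100a9). Of 11 NK-cell markers Klra8, a Ly49 receptor, was higher by 3.43 ± 0.27, and Tyrobp (-2.49 ± 0.15), Fcer1g (-0.64 ± 0.12) and Klrk1 (-0.55 ± 0.12) were lower. None of the 12 T-cell and CD8 markers passed in naive cells. The part of these differences in the Xcl1 and Ccl5 results was not tested.

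In activated cells 3 of the 9 chemokine genes were higher in the knockout and none was lower: Ccl1, Ccl9 and Ccl5. The background was 1.32% of all genes called, 0.949% higher and 0.372% lower. Ccl1 averaged 6.04 ± 0.10 in activated knockout cells and 4.46 ± 0.10 in activated wild-type cells, a 2.98-fold difference (1.57 ± 0.12, adjusted p = 5.23e-06). Ccl9 averaged 6.82 ± 0.17 in activated knockout cells and 5.84 ± 0.06 in activated wild-type cells, a 1.97-fold difference (0.98 ± 0.11, adjusted p = 0.000295). The second Ccl9 probe set also passed, at 1.08 ± 0.21 (adjusted p = 0.0230 over all probe sets). Ccl5 averaged 5.58 ± 0.21 in activated knockout cells and 4.91 ± 0.01 in activated wild-type cells, a 1.60-fold difference (0.68 ± 0.10, adjusted p = 0.00334). That is the opposite sign to its difference in naive cells.

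Arrays of the activated genotypes also did not overlap for Ccl3 and Xcl1, which makes 5 of the 9 genes higher and 0 lower without overlap, against 7.96% of all genes upward and 6.34% downward. The Ccl3 difference was 0.30 ± 0.13 (adjusted p = 0.439) and the Xcl1 difference 0.41 ± 0.15 (adjusted p = 0.275), so neither passed. Ccl4 differed by 0.28 ± 0.21, Ccl22 by 0.23 ± 0.10, Cxcl10 by 0.14 ± 0.09 and Ccl17 by 0.03 ± 0.09. The median over the 9 genes was 0.30, against 0.00 over all genes. None of the B-cell, macrophage and neutrophil, or dendritic-cell markers passed in this comparison. Of the NK-cell list only Prf1, which encodes perforin and is also made by CD8 effector cells, passed (1.12 ± 0.18). Of the 12 T-cell and CD8 markers 5 were lower in activated knockout cells (Cd2, Cd8b1, Lck, Cd3d and Cd8a), and the list mean ranged over 5.22 to 5.41 in activated knockout cells and 5.54 to 5.66 in activated wild-type cells. The early response genes Hspa1b (1.01 ± 0.20) and Atf3 (0.71 ± 0.14) were higher in activated knockout cells, and the part of these differences in the chemokine results was not tested.

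**Figure D3:**
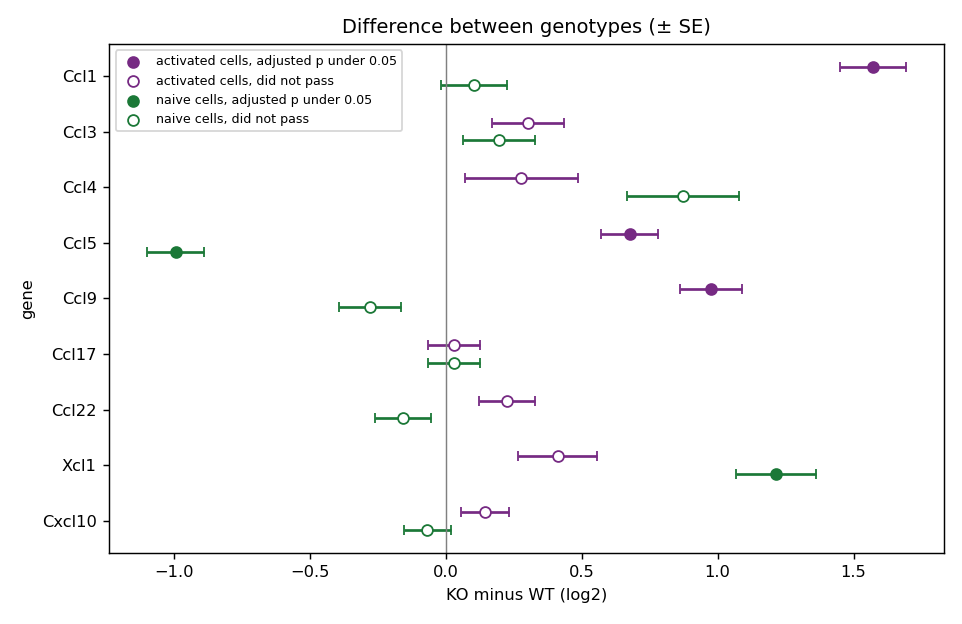
Difference between genotypes (knockout minus wild type, log2, with SE) of the 9 chemokine genes in activated cells (purple) and naive cells (green), with filled points for an adjusted p under 0.05. Ccl1, Ccl5 and Ccl9 pass in activated cells (1.57, 0.68 and 0.98), and Xcl1 and Ccl5 pass in naive cells (1.22 and -0.99).

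Whether the activation response itself differed between genotypes was tested as the difference of the 2 changes, knockout minus wild type. It passed for 3 of the 9 chemokine genes, all in the positive direction, against 0.868% of all genes called (0.606% higher, 0.262% lower). The Ccl5 difference was 1.67 ± 0.15 (adjusted p = 3e-05), since its fall was smaller in knockout cells. The Ccl1 difference was 1.47 ± 0.17 (adjusted p = 0.000337), and the Ccl9 difference was 1.25 ± 0.16 (adjusted p = 0.000838), each with a larger rise in knockout cells. The second Ccl9 probe set gave 0.90 ± 0.30, which did not pass (adjusted p = 0.300). For Xcl1 the difference was -0.80 ± 0.21 (adjusted p = 0.104) and for Ccl4 -0.59 ± 0.29 (adjusted p = 0.538), with smaller rises in knockout cells. Without the naive array of knockout mouse 4, the lowest of its group for both genes, both passed. Xcl1 was then at -1.01 (adjusted p = 0.00325) and Ccl4 at -0.90 (adjusted p = 0.0450). With any other single array left out neither passed. The differences came as near to 0 as -0.68 for Xcl1 and -0.43 for Ccl4, with adjusted p up to 0.243 and 0.769. Ccl22 (0.38 ± 0.15), Cxcl10 (0.21 ± 0.12), Ccl3 (0.11 ± 0.19) and Ccl17 (0.00 ± 0.13) did not pass. B-cell and macrophage and neutrophil markers that were lower in naive knockout cells moved the same way as Ccl5 here, with 3 of 13 passing as higher in each list. Their part in the Ccl5 result was not tested.

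The remaining chemokine ligands of the mouse did not respond in this way. Of 29 listed, 26 were measured, and none rose upon activation in either genotype. Over all genes 15.8% rose and 10.9% fell in knockout cells, against 14.8% and 11.9% in wild-type cells. In knockout cells Ccl28, a mucosal chemokine, fell by 0.34 ± 0.12. In wild-type cells Cxcl9, an interferon-induced ligand of Cxcr3, fell by 0.35 ± 0.11, and Cxcl1, a neutrophil attractant, fell by 0.27 ± 0.08. None of the 26 differed between genotypes in either state or in the response, and the list's mean level lay between 0.81 and 0.93 on every array. That is near or below the array medians of 0.905 to 0.976. Without detection calls, a lack of response in these genes cannot be told from a lack of signal. The list's median change was -0.03 in knockout cells and -0.06 in wild-type cells.

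Position along the chromosome was examined with the order of genes in RefSeq. Ccl5, Ccl9, Ccl3 and Ccl4 lie in 1 cluster on chromosome 11, in that order, with Ccl6 between Ccl9 and Ccl3. Ccl6, another Ccr1 ligand, changed by 0.00 ± 0.10 in knockout cells and -0.20 ± 0.10 in wild-type cells upon activation, and neither passed. Ccl5 at one end fell while the other 3 members of the cluster rose. Beside Ccl5 lies Taf15, an RNA-binding protein gene, which did not pass in knockout cells (0.16 ± 0.10) and rose by 0.58 ± 0.10 in wild-type cells. On the far side of Ccl4 the genes Wfdc17, Wfdc18 and Wfdc21 did not pass. Ccl1 lies in another cluster of chromosome 11 beside Ccl8, Ccl12 and Ccl11, none of which passed in any comparison. On chromosome 8 Ccl22, Cx3cl1 and Ccl17 are adjacent, and on chromosome 5 Cxcl10 lies between Art3 and Cxcl11, with Cxcl9 next to Art3. Of the 32 neighbouring genes that are not among the 9, 4 rose and 2 fell in knockout cells. In wild-type cells 4 rose and 3 fell. Over all genes 15.8% rose and 10.9% fell in knockout cells, and 14.8% rose and 11.9% fell in wild-type cells. None of the 32 passed between genotypes or in the difference of the response. There the shares of all genes were 1.32% in activated cells, 1.09% in naive cells and 0.868% for the response.

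**Figure D4:**
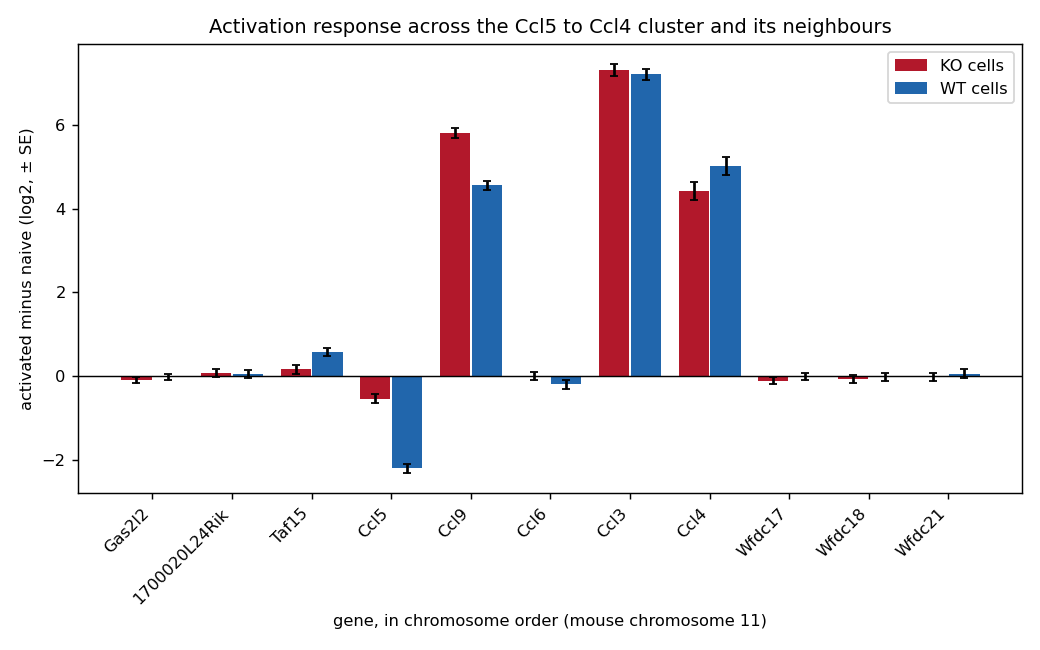
Change upon activation (log2, bars with SE) of Ccl5, Ccl9, Ccl3 and Ccl4 and their neighbours in order along mouse chromosome 11, in knockout cells (red) and wild-type cells (blue). Tall upward bars stand at Ccl9, Ccl3 and Ccl4 and downward bars at Ccl5 (-0.54 and -2.21), with Ccl6 between them near 0.

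Of the receptors for these ligands described here, Cxcr3, which binds Cxcl10, differed most between groups. It read 3.22, 3.52 and 3.54 in activated knockout cells, 2.89, 2.75 and 3.16 in activated wild-type cells, 5.22, 5.19 and 5.24 in naive knockout cells and 3.62, 3.54 and 3.54 in naive wild-type cells. The genotypes did not overlap in either state, and the highest activated knockout arrays came close to the naive wild-type level. Cxcr3 was higher in the knockout by 0.49 ± 0.11 in activated cells and by 1.64 ± 0.11 in naive cells, and its fall upon activation was larger in knockout cells by 1.15 ± 0.15 (adjusted p = 0.0011). Ccr4, which binds Ccl17 and Ccl22, rose by 1.24 ± 0.14 in knockout cells and 1.18 ± 0.14 in wild-type cells.

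Ccr1, which binds Ccl3, Ccl5 and Ccl9, had group means between 0.45 and 0.54, and Ccr8, which binds Ccl1, between 0.70 and 0.78. Neither passed in any comparison. Xcr1, which binds Xcl1 and marks cross-presenting dendritic cells, differed by -0.07 ± 0.08 in knockout cells and fell by 0.26 ± 0.08 in wild-type cells. Over all 23 measured chemokine receptors 2 rose and 7 fell in knockout cells, against 15.8% and 10.9% of all genes. In wild-type cells 2 of these receptors rose and 6 fell, against 14.8% and 11.9% of all genes. Among the largest changes were the fall of Cxcr4, the receptor for Cxcl12 (-2.12 ± 0.12 and -2.56 ± 0.12 in knockout and wild-type cells), the fall of the gut-homing receptor gene Ccr9 (-1.71 ± 0.18 and -2.20 ± 0.18) and the rise of the scavenging receptor gene Ackr4 (2.57 ± 0.10 and 2.21 ± 0.10). Between genotypes 2 receptors were higher in activated knockout cells, Cxcr4 by 0.93 ± 0.12 and Cxcr3. In naive knockout cells Cxcr3 was higher and Cxcr6, a receptor of tissue-resident T cells, was lower by 0.74 ± 0.09. The median change of the list was -0.12 in knockout cells and -0.10 in wild-type cells upon activation, and 0.01 between activated and -0.04 between naive genotypes.

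**Figure D5:**
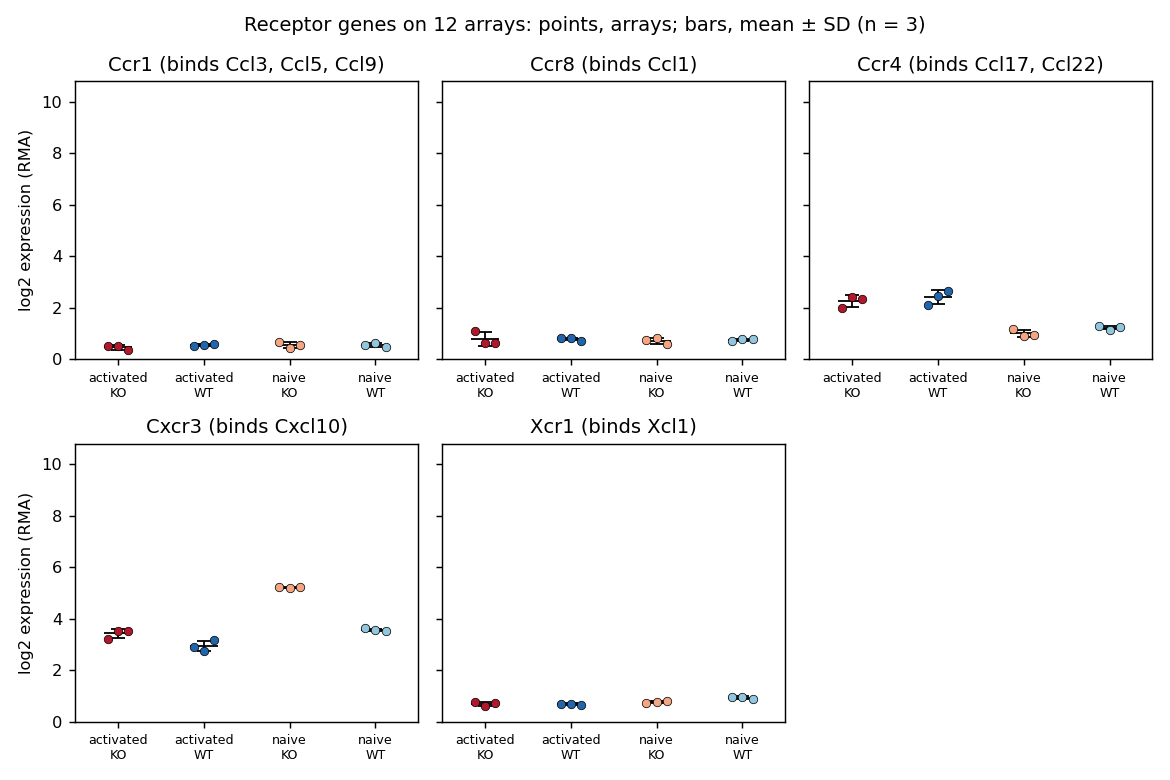
Log2 expression of the receptors Ccr1, Ccr8, Ccr4, Cxcr3 and Xcr1 on 12 arrays (points), with the mean and SD of each group of 3 (bars). Cxcr3 is highest in naive knockout cells (mean 5.21), Ccr4 is higher in activated cells of both genotypes, and Ccr1, Ccr8 and Xcr1 stay low in all groups.

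Of 30 genes that encode transcription factors known to drive chemokine transcription, 12 rose and 11 fell upon activation in knockout cells. In wild-type cells 13 rose and 10 fell. The shares of all genes were 15.8% and 10.9% in knockout cells and 14.8% and 11.9% in wild-type cells. The median change of the list was 0.18 in knockout cells and 0.21 in wild-type cells. Irf4 rose by 2.47 ± 0.16 in knockout cells and 2.83 ± 0.16 in wild-type cells, Egr2 by 3.18 ± 0.13 and 2.64 ± 0.13, and Irf8 by 3.35 ± 0.15 and 2.54 ± 0.15. The AP-1 genes Fos (-5.55 ± 0.08 in knockout and -5.76 ± 0.08 in wild-type cells) and Jun (-1.85 ± 0.10 and -2.22 ± 0.10) fell. Of the other AP-1 genes, Junb and Jund also fell in both genotypes, and Fosl1 rose by 0.78 ± 0.12 in knockout and 0.93 ± 0.12 in wild-type cells. Of the NF-kappaB genes, Nfkb1 rose by 1.76 ± 0.11 in knockout and 1.87 ± 0.11 in wild-type cells, and Rel by 1.17 ± 0.13 and 1.06 ± 0.13. Nfkb2 also rose in both genotypes, Relb rose in knockout cells only, and Rela did not pass. Of the NFAT genes, Nfatc1 rose in wild-type cells only (0.81 ± 0.13), and Nfatc2 and Nfatc3 fell in both genotypes. Fos and Jun also stand in a list of 12 early response genes that handling of cells can raise. Of that list 8 fell upon activation and 4 rose (Atf3, Hspa1b, Egr1 and Hspa1a), in each genotype. The part of handling in these changes was not tested. Between activated genotypes the T-box factor gene Eomes was higher in the knockout by 1.01 ± 0.18, and the interferon-signalling gene Irf1 (-0.73 ± 0.15) was lower. Between naive genotypes Eomes (2.63 ± 0.18) and Irf7 (0.77 ± 0.12) were higher and Irf8 (-1.03 ± 0.15) was lower. In the difference of the response Eomes (-1.62 ± 0.25) and Irf7 (-1.06 ± 0.17) passed as lower.

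Among 30 genes of chemokine receptor signalling, 5 rose and 12 fell in knockout cells upon activation, against 15.8% and 10.9% of all genes. In wild-type cells 6 of them rose and 13 fell, against 14.8% and 11.9%. Between activated genotypes Rgs2, a regulator that shortens G-protein signalling, was higher in the knockout by 1.44 ± 0.11, the phosphoinositide kinase subunit gene Pik3r5 was higher by 0.52 ± 0.09 and the motility GTPase gene Rac2 was lower by 0.54 ± 0.10. Only Pik3r5 passed between naive genotypes (0.52 ± 0.09). Of 12 genes of chemokine storage and cleavage, Dpp4, a protease that trims chemokines, fell by 1.06 ± 0.13 in knockout cells and 1.64 ± 0.13 in wild-type cells. Cd44, of which only some forms carry heparan sulfate that can hold chemokines, rose by 2.95 ± 0.15 and 2.55 ± 0.15. It was higher in activated knockout cells by 0.94 ± 0.15. Srgn, which encodes the proteoglycan that packs chemokines into granules, rose by 0.30 ± 0.10 in knockout cells and differed by -0.03 ± 0.10 in wild-type cells.

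The genes most like each chemokine gene were found by Pearson's r over the 12 arrays, among 3684 or 3685 genes with a range of at least 1 log2 unit. The arrays share the contrast between states, so high values are common for genes that respond to activation. Ccl1 was most like Penk (0.998), an enkephalin precursor gene, and the cytokine genes Il3 (0.998) and Il2 (0.995). These 3 genes had, like Ccl1, a higher mean in knockout than in wild-type cells after activation, with 5.26 and 3.88 for Penk, 7.35 and 5.26 for Il3, and 7.11 and 5.44 for Il2. Ccl9 was most like Lad1 (0.998), Idi1 (0.996) and Serpinb6b (0.996). Ccl3 was most like Il2ra, Tpi1 and the probe set filed under Mir155 (0.998 each). Ccl4 and Xcl1 had each other among their 3 nearest genes (0.996), together with Ipo5. Ccl5 was most like Sgk3 (0.975), Sesn1 (0.965) and Itga4 (0.955), whose means were likewise lower in activated than in naive cells. For the 3 genes with low readings the highest values were 0.968 for Ccl22 with Cenpa, 0.919 for Cxcl10 with Cd160 and 0.678 for Ccl17 with Shisal1.

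The authors' deposited table selects probe sets at an unadjusted p under 0.01 with a ratio over 1.3. For the difference of the response the authors' deposited table selects Ccl5 (3.18), Ccl1 (2.77) and Ccl9 (2.38). Between activated genotypes the authors' deposited table selects Ccl1 (2.98), Ccl9 by both probe sets (1.97 and 2.12) and Ccl5 (1.60), and between naive genotypes Xcl1 (2.32) and Ccl5 (0.502). The same table flags NF-kappaB binding in ENCODE data from 5 kb before to 1 kb after a start point. In the authors' deposited table the flag is 1 for Ccl4, Ccl5, Ccl22 and Cxcl10 and 0 for Ccl1, Ccl17 and Xcl1, and Ccl3 and Ccl9 have no value. That is 57.1% of the 7 chemokine genes with a value, against 46.8% of the 14913 genes with one.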

How the data were processed

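Per the file headers, the authors made the log2 values with a perfect-match version of RMA, with version and genome build not given in the sources used here. Deposited log2 values entered the fits unchanged, without detection calls, and their precision is limited by the number of arrays. The authors' deposited workbook also holds unadjusted p-values of a 2-way analysis of variance and, per the file headers, a ratio kept where p was under 0.01 and the fold over 1.3. Each gene was represented by its probe set with the highest mean over the 12 arrays, and 104 control probe sets were left out. A single limma fit (limma 3.58.1, R 4.3.3) held all 4 groups, with 1 mean per group, eBayes, two-sided tests and Benjamini-Hochberg adjustment over 20962 genes. The procedure was tested on simulated data. The 5 comparisons were also fitted with other variance models, filters, scalings, probe-set choices, a block for the mouse and each array left out. Naive and activated samples of a mouse come from the same animal, so its number pairs them. Taken across genes, Pearson's r of the paired deviations (sample minus group mean) was 0.04, -0.10, 0.05, 0.13, -0.05 and 0.07 for mice 1 to 6. Named genes are the 9 chemokine genes, their receptors, passing list members with the largest changes (up to 4 per list and comparison, all where 5 or fewer passed), chromosome neighbours, and the 3 most alike genes by Pearson's r. Results for some genes so chosen are not reported here. Further genes named beside these were chosen after their values were seen. The members and lists were chosen with earlier results of these data known. Tables used pandas 2.3.3 and numpy 2.4.6 in Python 3.11.15, and plots used matplotlib 3.10.9. RefSeq promoter entries were matched by gene ID for 7 of the 9 genes (Ccl4 and Ccl5 have none in the table used).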

Additional observations from a re-analysis of the deposited data

Results flagged for a closer look

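Of the 9 chemokine genes, 3 stand out because their activation response differed between genotypes by a test of that difference itself. The knockout minus wild-type difference of the log2 change was 1.67 for Ccl5, 1.47 for Ccl1 and 1.25 for Ccl9. Ccl5 fell less in knockout than in wild-type cells, and Ccl1 and Ccl9 rose more. The Ccl9 difference passed by the probe set with the higher mean and not by its second one (0.90 ± 0.30, adjusted p = 0.300).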

How the results depend on the processing

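Across 21 other settings, 867 of 906 alternative values for the 9 genes kept their direction and side of the threshold, and 33 of 45 member results did so in every setting. The mouse as a replicate block changed only the Ccl22 rise in wild-type cells (adjusted p = 0.0936), which 10 further settings also lost (range 0.0203 to 0.212 over all alternatives). Leaving out probe sets with cross-hybridization notes left Xcl1 and Cxcl10 to be tested. The count of genes higher upon activation was then 2 in knockout and 1 in wild-type cells, with 0 lower in each. Under that setting 0 were lower between naive genotypes, 0 higher between activated ones and 0 higher in the difference of the response. Between naive genotypes 2 genes were higher, Ccl4 joining Xcl1, with an intensity trend and robust variances, with the filter on dim genes and with quantile normalization, and 1 to 2 with 1 array left out. In the difference of the response 1 gene was lower with the trend and robust variances (Xcl1, adjusted p = 0.0229) and 0 to 2 with 1 array left out. The sign of some changes near 0 turned. For Ccl17 in wild-type activation it turned to 0.0067 (quantile) and 0.0593 (equal medians), and ranged over -0.0632 to 0.1077 with 1 array left out, and in knockout activation over -0.0279 to 0.056. In naive cells Ccl17 ranged over -0.0321 to 0.1389 and Ccl1 over -0.0587 to 0.1905 with 1 array left out, and Ccl9 turned to 0.1871 by its second probe set. In the difference of the response Ccl17 turned to -0.0006 (quantile), -0.0094 (equal medians) and ranged over -0.1075 to 0.0635 with 1 array left out, and Ccl3 over -0.0562 to 0.2931. The cause of these changes was not tested, apart from the smaller number of genes left under the stricter probe-set choice. A fit on only the arrays compared does not exist for the difference of the response, which uses all 12.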
